A study of Drosophila melanogaster with 11 samples.

Results

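Exon usage, the signal of an exon relative to the mean signal of its gene, was compared between dTet knockdown and control S2 cells. Members were the genes with 3 or more non-overlapping exons and a gene mean signal of 2 or more over the 4 libraries, which gave 3028 of 16563 genes and 19747 of 68582 non-overlapping exons. A further 6028 genes had enough exons but a lower mean, and 7507 had fewer exons. CG10671, with a gene mean of 2.00, lay just inside the minimum, and pall, also at 2.00 after rounding, just outside it. The groups were 2 polyA RNA-seq libraries of S2 cells labelled dTet KD and 2 labelled dTet Ctrl. The labels name neither the knockdown reagent nor the treatment of the controls, and whether the replicates came from separate cultures is not stated. P-values therefore measure the spread between these libraries, which may be technical. S2 is an established Drosophila line with hemocyte-like properties, and 8 of 12 hemocyte markers had a signal of 2 or more, while 0 of 6 muscle, 1 of 7 neuronal or glial and 1 of 6 germline markers did. The summed signal of the hemocyte markers was 192 and 205 in the knockdown libraries, against 215 and 220 in the controls.

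Many fly genes give several mRNAs through alternative promoters, alternative splicing and alternative polyadenylation, and each of these alters the signal of some exons relative to the rest of the gene without needing any change of the gene level. SR proteins and hnRNPs bind the pre-mRNA and steer the choice of splice sites by the spliceosome. dTet is the fly member of the Tet dioxygenases, enzymes that add a hydroxyl group to the methyl group of methylcytosine, and the study mapped the resulting base, hydroxymethylcytosine, in RNA.

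Signal is a coverage value: reads were counted in bins of 40 bp, averaged over each exon and scaled by 1 factor per library. Usage is log2(exon signal + 1) minus log2(gene mean + 1), so that 0 means an exon at its gene's mean and a negative value an exon below it. In a bin, 1 read gave 0.372 and 0.476 signal in knockdown 1 and 2, against 0.340 and 0.390 in control 1 and 2. Reads summed over bins were 6227555 and 4910682 in the knockdown libraries and 6950548 and 5911763 in the controls, where a read may enter more than 1 bin. The typical member had 5 exons, and its typical exon 275 bp or 7 bins with between 44 and 56 reads in bins per library. Exons are numbered in genome order, since the files give no strand, and positions are dm3 positions as the files give them.

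The dTet gene is listed as CG43444 (now Tet; 3L, 2786206 to 2879157) with 11 non-overlapping exons. Its gene mean was 4.92 and 6.64 signal in the knockdown libraries, against 6.98 and 8.08 in the controls, so that both knockdown libraries lay below both controls. Within the gene the exons did not all follow that order. Exon 1 (2786206 to 2791276, 127 bins), with the highest signal of the gene, had 9.54 and 12.8 signal in the knockdown libraries and 13.5 and 16.03 in the controls. Its usage was 0.83 and 0.85 in the knockdown libraries, against 0.87 and 0.91 in the controls, a change of -0.05 (SE 0.06, limma, adjusted p = 0.982). Exon 5 (64 bins) had 3.29 and 4.62 signal in the knockdown libraries and 5.99 and 6.07 in the controls, a usage change of -0.18 (SE 0.13). Exon 7 (2820058 to 2821102, 27 bins) stood at 5.07 and 8.68 signal in the knockdown libraries, against 4.96 and 7.20 in the controls. Its usage was 0.04 and 0.34 in the knockdown libraries and -0.42 and -0.15 in the controls, a change of 0.47 (SE 0.20, limma, unadjusted p = 0.0432, adjusted p = 0.982). It was the sole dTet exon with an unadjusted p under 0.05. Exons 9 to 11 were low in all 4 libraries, between 0 and 0.850 signal.

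Across all members no exon passed the test. Of 19747 exons, 0 (0%) had an adjusted p under 0.05 (limma, two-sided), and 751 (3.8%) had an unadjusted p under 0.05, of which 430 (2.18%) were higher and 321 (1.63%) lower in the knockdown. The smallest adjusted p was 0.982. The median absolute usage change was 0.25 and the median standard error 0.40. The 95% interval of a typical exon, unadjusted for the number of exons, reached 0.93 to either side of its estimate. Usage changes of that size were not detectable in it, and after adjustment larger changes were missed too. In 365 exons the estimate was 1 or more, in 220 it was -1 or less, and none of these passed. In the exons with 26 or more bins the median standard error was 0.18, and in those of 3 to 5 bins 0.48. Usage of the groups did not overlap in 32.7% of exons, with both knockdown libraries above both controls in 17.6% and below both in 15.1%. For 2 against 2 libraries in random order the expected share without overlap is about 0.333. The libraries closest to each other came from different groups: the median absolute difference in usage was 0.29 between knockdown 1 and control 2, against 0.33 between the knockdown libraries and 0.38 between the controls. Pearson correlations of usage over the 19747 exons ranged from 0.82 to 0.87 among the 6 pairs of libraries; these are correlations across exons, which are not independent replicates.

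**Figure D1:**
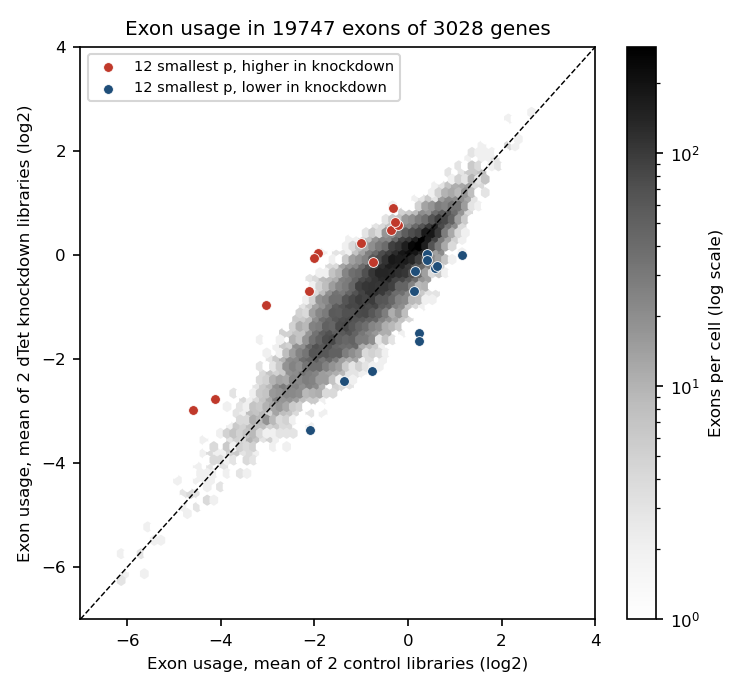
Mean exon usage (log2) of the 2 dTet knockdown libraries against that of the 2 control libraries, shaded by the number of exons per cell of the plot, with the diagonal as a dashed line. The exons spread along the diagonal, and the 12 exons of smallest p in each direction (red, higher in knockdown; blue, lower) lie at its margins without passing the test.

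Tests per gene also called none with a pseudocount of 1. An F test of unequal change among the exons of a gene (limma diffSplice) called 0 of 3028 genes (0%) at an adjusted p under 0.05. The Simes form of that test also called 0, and 102 genes (3.37%) had an unadjusted F-test p under 0.05. On simulated data the F test missed most changes of a single exon, so its count of 0 says little. The balance between the outer parts of a gene, its signal at the higher-coordinate end over that at the lower-coordinate end, differed in 0 genes (0%) after adjustment and in 94 (3.1%) before it (limma). With a pseudocount of 0.1 the F test called 6 genes (limma diffSplice, adjusted p from 0.0123 to 0.0382), Top1, CG30389, CG3168, CG11961, CG42666 and psq.

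The exons named next are the 12 of smallest p in each direction, at most 1 per gene. They are extremes of a ranking in which none passed (limma, adjusted p = 0.982 for each), and are given as values. The groups do not overlap in any of the 24, which the choice by p favours, against 32.7% of all exons. On the higher side, 6 exons had 12 or more bins and are given first. NFAT, the fly member of the NFAT family of transcription factors (X, exon 1 of 12, 13518777 to 13519621), had 7.21 and 6.0 signal in that exon in the knockdown libraries, against 1.79 and 3.55 in the controls. Its gene mean was 3.03 and 3.06 in the knockdown libraries and 3.40 and 3.44 in the controls, so the exon lay above the gene mean in both knockdown libraries and below or near it in the controls (change 1.22, SE 0.28). In NFAT exon 3 (16 bins) the order was the other way, with 3.37 and 3.66 signal in the knockdown libraries and 5.29 and 6.49 in the controls (change -0.48).

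Stat92E, the transcription factor of the JAK/STAT pathway, had 13.8 and 19.9 signal in exon 7 of 11 (3R, 16365696 to 16366175) in the knockdown libraries and 4.30 and 9.47 in the controls, a usage change of 0.93 (SE 0.22). Exon 1 of Stat92E was level in signal, at 17.9 and 19.1 in the knockdown libraries and 18.1 and 18.2 in the controls. Exon 10 was low in control 1 alone, with 5.14 and 7.72 signal in the knockdown libraries and 0.612 and 5.39 in the controls. pyd, the fly homolog of the tight junction protein ZO-1, had 5.65 and 5.15 signal in exon 13 of 23 (40 bins) in the knockdown libraries and 2.87 and 2.00 in the controls (change 0.85, SE 0.20). mei-P26, a TRIM-NHL protein known from the germline, had 4.27 and 3.18 signal in the knockdown libraries against 2.13 and 1.48 in the controls in its exon 5 of 9 (53 bins), with a change of 0.78 (SE 0.19). Unc-76, a kinesin adaptor, had 13.7 and 12.3 signal in exon 1 of 6 in the knockdown libraries, against 9.55 and 6.97 in the controls (change 0.61, SE 0.14). CG10383 exon 3 of 4 had 6.33 and 5.07 signal in the knockdown libraries and 1.46 and 2.43 in the controls (change 1.22, SE 0.29).

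The other 6 exons of this side were near or at 0 in the controls. CG8552 (now PAPLA1, a phospholipase gene) had 4.13 and 5.20 signal in its exon 9 of 9 (2L, 8159218 to 8159637) in the knockdown libraries, or 122 and 120 reads in bins, against 0.309 and 0.355 signal and 10 reads in each control. Its gene mean was nearly level, at 4.55 and 4.43 in the knockdown libraries and 4.01 and 4.04 in the controls. Its usage change was 1.95 (95% interval 1.08 to 2.82, which does not allow for the choice of this exon by p). With a pseudocount of 0.1 the change was 3.30. CG12065 exon 4 of 9, of 2 bins, had 26 and 10 reads in bins in the knockdown libraries and 0 in both controls. CG7781 exon 3 of 4 had 13 and 10 reads in the knockdown libraries and 0 in both controls, and its gene mean differed as well, at 1.27 and 0.830 in the knockdown libraries against 2.64 and 3.46 in the controls. The changes fitted for these exons, 2.08 and 1.95, depend on the pseudocount and are no measure of a fold. CG8320 exon 1, Sec61alpha exon 3 (the protein channel of the endoplasmic reticulum) and Ggamma1 exon 1 (a G protein subunit) had 8 reads in bins or fewer in every library.

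**Figure D2:**
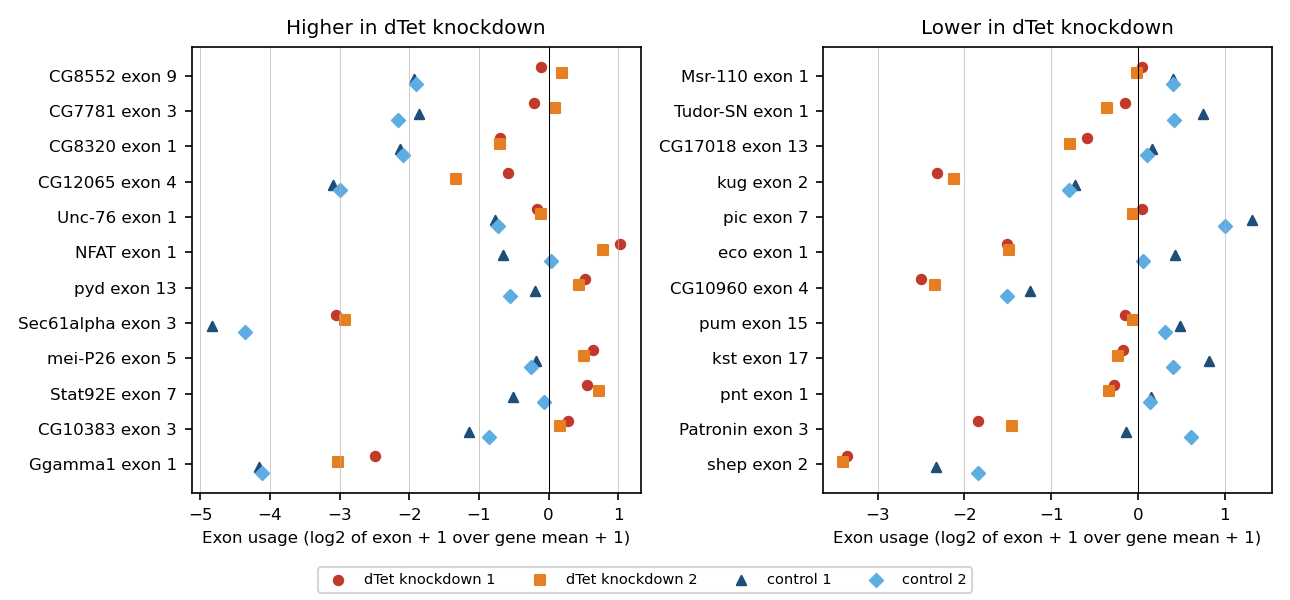
Exon usage (log2 of exon signal + 1 over gene mean + 1, x axis) in each of the 4 libraries for the 12 exons of smallest p that were higher (left) and lower (right) in dTet knockdown, with the smallest p at the top. In each exon both knockdown libraries (red circles, orange squares) lie on 1 side of both control libraries (blue triangles, light blue diamonds); CG10960 exon 4 has 0 signal in all 4 libraries, so its spread comes from the gene mean.

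On the lower side the exon with the most signal was Msr-110 exon 1 of 7 (3L, 5560018 to 5560702). It had 50.5 and 55.5 signal in the knockdown libraries and 58.4 and 64.4 in the controls, and the gene mean ran the other way, at 48.7 and 55.9 in the knockdown libraries against 44.1 and 48.2 in the controls. Its usage change was -0.38 with a standard error of 0.07. eco, the acetyltransferase that establishes sister chromatid cohesion, had 0.609 and 0.260 signal in exon 1 of 4 (3L, 7328541 to 7328974) in the knockdown libraries, against 3.77 and 3.62 in the controls. Its neighbour, exon 2 of 78 bins, had 4.14 and 2.93 in the knockdown libraries and 2.47 and 3.53 in the controls. Usage of that exon was 0.16 in both knockdown libraries and -0.03 and 0.03 in the controls, a change of 0.16 (SE 0.14). pic, the fly homolog of the damaged-DNA-binding protein DDB1, had 4.47 and 4.10 signal in its exon 7 of 7 in the knockdown libraries and 9.89 and 8.75 in the controls (change -1.16, SE 0.27).

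In a further 4 genes the exon had 14 or more bins. pum encodes Pumilio, a repressor of translation that binds mRNA, and its exon 15 of 17 had 11.4 and 13.0 signal in the knockdown libraries against 19.3 and 16.6 in the controls (change -0.50, SE 0.12). pnt, an ETS transcription factor downstream of Ras, had 12.5 and 12.5 signal in exon 1 of 11 in the knockdown libraries against 18.7 and 18.1 in the controls (change -0.45, SE 0.11). kst, the heavy beta spectrin, had 9.63 and 8.67 signal in the knockdown libraries against 15.2 and 12.4 in the controls in exon 17 of 17 (change -0.81, SE 0.20). CG17018 (now Marf1) had 10.3 and 6.94 signal in the knockdown libraries against 13.6 and 15.2 in the controls in exon 13 of 13 (change -0.82, SE 0.18). The gene means of these 4 genes lay between 10.3 and 16.1 in the knockdown libraries and between 8.19 and 16.7 in the controls.

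Tudor-SN, a nuclease found in the RNA-induced silencing complex, had 7.27 and 9.12 signal in its exon 1 of 4 in the knockdown libraries, against 21.4 and 12.7 in the controls (change -0.84, SE 0.17). That exon overlaps wac, and the reads of both genes cannot be told apart. The microtubule minus-end gene Patronin (exon 3, 2 bins), the RNA-binding protein gene shep (exon 2, 1 bin) and kug (exon 2, 2 bins), which encodes the atypical cadherin Fat2, had 0 to 2 reads in bins in the knockdown libraries and 4 to 22 in the controls. CG10960 exon 4 is listed at 0 in all 4 libraries, and its change of -1.04 reflects a gene mean of 4.64 and 4.05 in the knockdown libraries against 1.37 and 1.84 in the controls.

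The genes with the smallest F-test p that the exon ranking did not name were CG2943, CG7945, Top1, Liprin-alpha and CG11961 (limma diffSplice, adjusted p = 0.826 for each). CG2943 (now EMC1, of the complex that inserts proteins into the endoplasmic reticulum membrane) crossed over along its 13 exons. Exon 2 had 1.98 and 4.61 signal in the knockdown libraries against 10.2 and 9.30 in the controls, while exon 10 had 6.89 and 3.57 in the knockdown libraries against 1.87 and 1.56 in the controls. In CG7945 the short exons 2 and 3 had 0.744 and 0 signal each in the knockdown libraries, against 3.91 and 3.32 in exon 2 and 4.76 and 3.12 in exon 3 of the controls. Its long exon 4 was level, at 10.4 and 11.7 in the knockdown libraries and 11.03 and 10.2 in the controls.

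Top1, the gene of DNA topoisomerase I, had 2.98 and 3.10 signal in exon 5 of 10 (X, 15216878 to 15217007, 4 bins) in the knockdown libraries, from 32 and 26 reads in bins, and 0 in both controls. The neighbouring exon 4 (25 bins) was level, at 4.64 and 4.0 in the knockdown libraries and 4.05 and 3.17 in the controls. CG11961 exon 2 of 12 likewise had 1.64 and 1.52 signal in the knockdown libraries and 0 in both controls, while exon 10 of CG11961 had 1.41 and 1.52 in the knockdown libraries against 8.02 and 3.05 in the controls. Liprin-alpha, a scaffold gene of synapses, had its highest signal in exon 5 of 16, at 12.1 and 11.01 in the knockdown libraries and 4.08 and 9.11 in the controls, so its control libraries differed from each other by more than control 2 did from the knockdown.

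**Figure D3:**
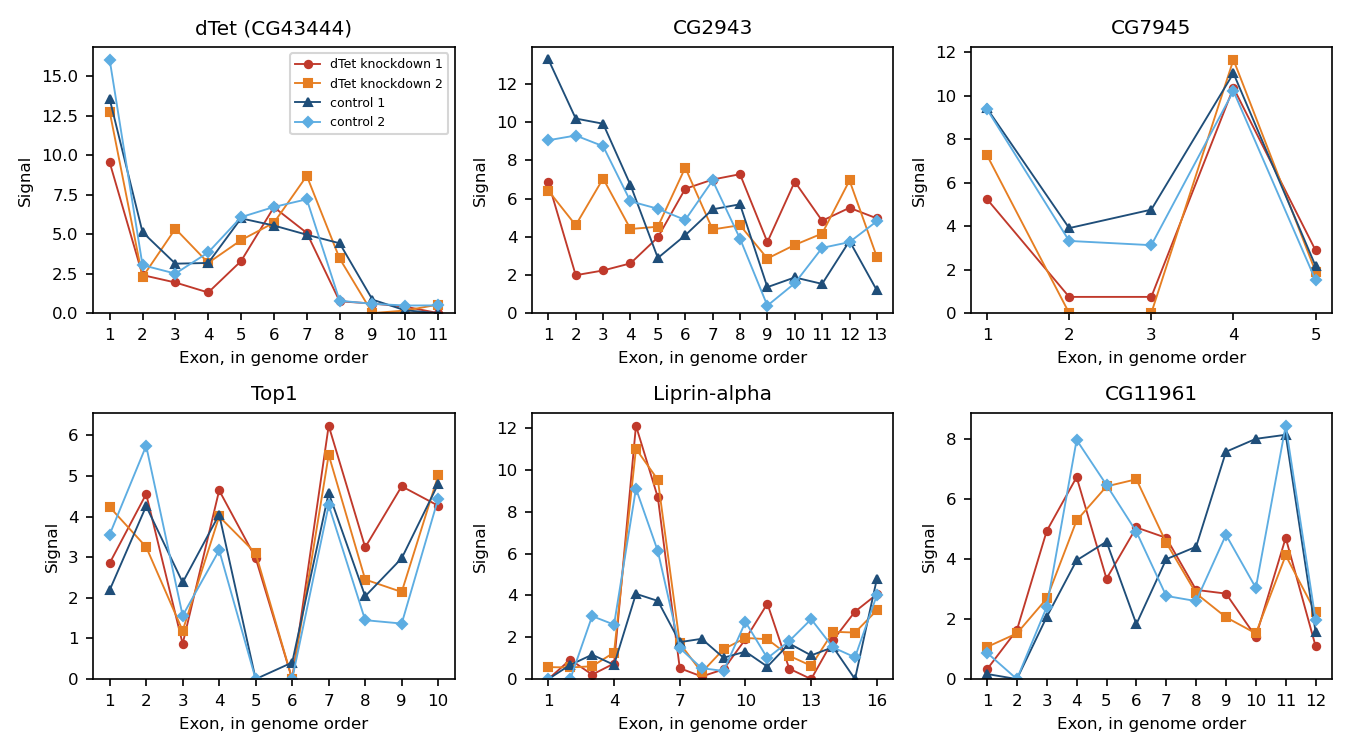
Signal of each exon (y axis) in genome order (x axis) for dTet and the 5 genes of smallest F-test p, 1 line per library. In dTet both knockdown libraries lie below both controls in exon 1 and not in exons 6 and 7; in Top1 only exon 5 is at 0 in both controls and covered in both knockdown libraries.

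Exons with signal in 1 group alone were few. In 13 of the 19747 exons both controls were at 0 and both knockdown libraries at a signal of 1 or more. In 7 of the 19747 the knockdown libraries were at 0 and the controls at 1 or more. All 20 had 8 bins or fewer, where the median over all member exons was 7 bins. The highest signal in any of the 20 was 4.84 (CG12065). Between replicates, where the rule takes 1 library against 1 and so is easier to meet, 347 exons were at 0 in control 1 and at 1 or more in control 2, 198 the other way, and between the knockdown libraries the counts were 222 (0 in knockdown 1) and 371 (0 in knockdown 2). The 13 lay in Top1, Top2, Actn, Atx2, mura, nuf, path, CG11961, CG12065, CG1354, CG1399, CG6479 and CG8209. Top2 encodes DNA topoisomerase II, Actn alpha-actinin and Atx2 the RNA-binding protein Ataxin-2. The 7 lay in shep, Reck, RhoGAP19D, CG11876 (now Pdhb, a pyruvate dehydrogenase subunit gene), CG12404, CG3732 and CG43781. The CG43781 exon (3L, 7328179 to 7328325) lies close to eco exon 1, named above as lower in the knockdown. Whether both reflect 1 local difference was not tested. Actn exon 8 had 1.77 and 2.86 signal in the knockdown libraries, and CG11876 exon 5 had 2.27 and 1.82 in the controls.

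Usage was set out by the place of an exon in its gene and by its length. Genes were turned so that the end with the higher mean signal over the 4 libraries came first. A fall along the gene is therefore built in. The same libraries set the choice of end, and a library with more extreme end ratios weighs more in it. Part of the steepness of such a library is thus built in too, and steepness per library is given as a description. In the 20% of exonic length next to that end the median usage was 0.17 and 0.13 in the knockdown libraries, against 0.41 and 0.19 in control 1 and control 2. In the last 20% it was -1.17 and -1.12 in the knockdown libraries, against -1.45 and -1.12 in the controls. With genes turned in this way, knockdown 1, knockdown 2 and control 2 ran close together, and control 1 fell off more steeply along the gene. The median log2 ratio of the higher to the lower end was 0.73 and 0.67 in the knockdown libraries (mean 0.70 ± 0.04, SD, n = 2), against 1.14 and 0.71 in the controls (mean 0.93 ± 0.31, SD, n = 2). The difference of -0.22 was smaller than the spread between the controls (exact permutation test, two-sided, p = 0.667, where 2 against 2 libraries cannot go below 0.333).

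The usage change between groups, whose control mean includes control 1, differed by place as well, and the part of control 1 in it was not tested. Exons in the first 20% had a median usage change of -0.13, with 38 higher and 121 lower among those of unadjusted p under 0.05, and exons in the last 20% had 0.11, with 171 higher and 83 lower. With control 2 left out, so that control 1 alone stood for the controls, 124 exons passed (limma), 78 higher and 46 lower in the knockdown. Of the 78 higher exons 15 (19.2%) lay in the first 20%, and of the 46 lower exons 34 (73.9%), against 14.7% of all exons. NFAT exon 1, Stat92E exon 7, Tudor-SN exon 1 and kst exon 17 were among the 124. With control 1 left out, 0 exons passed.

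Short exons had low usage in every library. Exons of 1 to 2 bins had a median usage of -1.73 and -1.76 in the knockdown libraries and -1.84 and -1.68 in the controls, and between 35.3% and 42.1% of them were at 0. Exons of 26 or more bins had 0.15 and 0.13 in the knockdown libraries and 0.16 and 0.14 in the controls, with at most 0.471% at 0. The aligner named for these files is BWA, and how reads across exon junctions were treated is not given in the sources used here; its part in the low usage of short exons was not tested. The usage change showed no such slope, with medians between -0.02 and 0.06 over the classes of length.

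**Figure D4:**
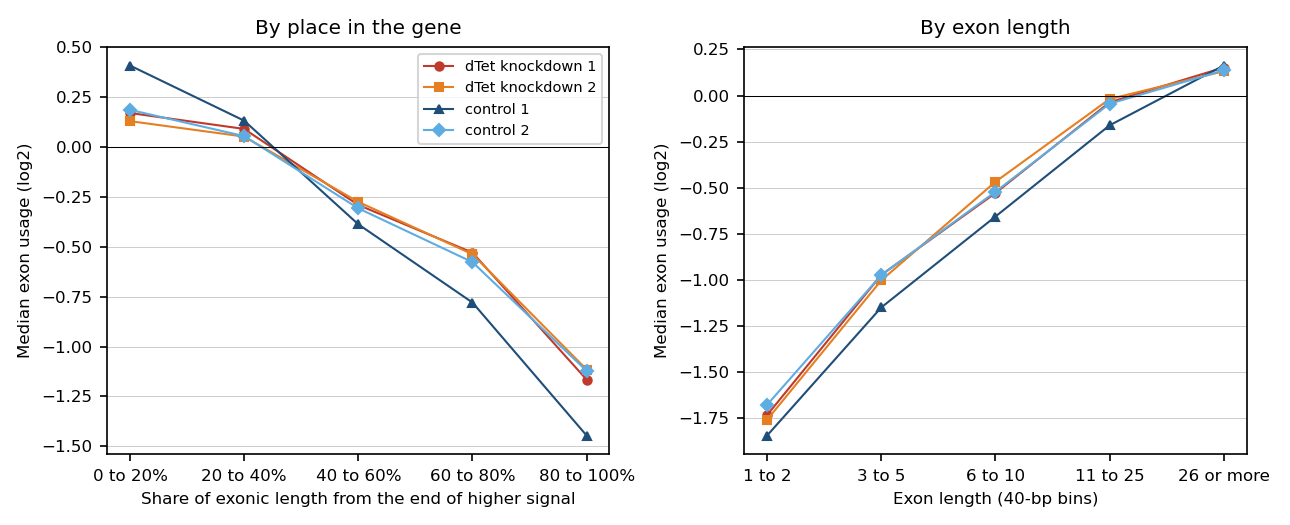
Median exon usage (log2, y axis) in each library by distance from the end of the gene with the higher signal (left) and by exon length in 40-bp bins (right). Control 1 (dark blue) runs from 0.41 to -1.45 along the gene, more steeply than the other libraries, and all 4 libraries rise with exon length.

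Some exons stood far from their gene's mean in every library. In all 4 libraries 2599 exons (13.2%) stood at 0.25 of the gene mean or less, 262 (1.33%) at 2 times the gene mean or more, and 649 (3.29%) were at 0. Among internal exons of 5 or more bins in genes with a mean of 10 or more, the highest usage was in Smr, a transcriptional corepressor gene. Its exon 9 of 12 had 129 and 120 signal in the knockdown libraries and 140 and 135 in the controls, where the gene mean was 17.3 and 16.5 in the knockdown libraries and 19.0 and 17.4 in the controls. That exon overlaps CR43963. Bsg, the basigin gene, had 71.3 and 77.3 signal in exon 3 of 8 in the knockdown libraries and 77.0 and 69.0 in the controls, against gene means of 11.1 and 11.3 in the knockdown libraries and 10.9 and 10.8 in the controls. RpL5, a ribosomal protein gene, had 152 and 169 signal in exon 2 of 4 in the knockdown libraries and 164 and 152 in the controls (change 0.00, SE 0.06). ens exon 4 and RpL28 exon 2 completed this end, with changes of 0.34 and 0.04.

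At the low end, betaTub56D exon 2 of 3 had 0.213 and 0.204 signal in the knockdown libraries and 0.728 and 0.948 in the controls, in a tubulin gene with means between 43.1 and 52.8. Msr-110 exon 5, His3.3B exon 4 (a histone H3.3 gene) and eIF-4a exon 2 (now eIF4A, the RNA helicase of translation initiation) had 1.83 signal or less in every library.

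Gene lists for splicing and RNA metabolism were chosen with earlier results of these data known and are described by counts. Of 30 SR proteins, hnRNPs and related splicing regulators 22 were members, with 159 exons, of which 0 passed the test and 8 (5 higher, 3 lower) had an unadjusted p under 0.05, a share of 5.03% against 3.8% over all exons. Their median change was 0.10, against 0.02 over all exons. ps, the fly homolog of the NOVA splicing factors, had 27.5 and 30.2 signal in exon 4 of 12 in the knockdown libraries and 20.3 and 24.1 in the controls (change 0.33, SE 0.10). Spx exon 2 had 0 and 1.27 in the knockdown libraries and 0.113 and 0 in the controls. Only knockdown 2 had more than a trace of signal there, and the usage change of 1.08 reflects the gene mean as well as the exon. Of 25 core spliceosome genes 8 were members, since 15 have fewer than 3 exons, and 0 of their 46 exons had an unadjusted p under 0.05. The branch-point binding gene SF1 had 3.07 and 4.11 signal in exon 2 in the knockdown libraries and 5.69 and 5.32 in the controls (change -0.51). U2af50 exon 4 and Prp8 exon 5 had changes of 0.57 and 0.53.

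Textbook cases of alternative splicing held 17 members of 35 listed, with 326 exons, of which 7 (4 higher, 3 lower; 2.15%, against 3.8% over all exons) had an unadjusted p under 0.05, and a median change of -0.02. sgg, the fly GSK3 kinase gene, had 2.91 and 2.72 signal in exon 12 of 24 in the knockdown libraries and 5.78 and 8.73 in the controls (change -0.85, SE 0.28). Pde8 exon 22 had 3.46 and 8.64 signal in the knockdown libraries against 2.04 and 0.446 in the controls (change 1.54, SE 0.53). mod(mdg4) is known for trans-splicing of many alternative ends, and its exon 22 of 36 had 0.0414 and 0 signal in the knockdown libraries, against 1.89 and 1.47 in the controls. That exon overlaps other annotated units of the same locus. Sxl, the switch gene of sex determination, had 15 exons and no exon with an unadjusted p under 0.05; its exon 3 (48 bins) had 7.99 and 5.01 signal in the knockdown libraries and 7.32 and 6.41 in the controls.

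Of 10 listed RNA interference genes, 5 were members (AGO1, AGO2, Dcr-2, Rm62 and Tudor-SN), with 39 exons, of which 0 passed and 6 (15.4%, against 3.8% over all exons) had an unadjusted p under 0.05, 3 higher and 3 lower. These 6 come from 4 genes, since AGO2 (exons 2 and 7) and Tudor-SN (exons 1 and 3) hold a pair each, with 1 exon higher and 1 lower. AGO2, the Argonaute that cleaves targets of small interfering RNAs, had 12.6 and 14.2 signal in exon 2 of 7 in the knockdown libraries and 3.68 and 9.88 in the controls. Its gene mean was 13.5 and 15.8 in the knockdown libraries and 8.52 and 13.3 in the controls, which left a usage change of 0.59 (SE 0.20). Control 1 was the lowest library in that exon. Dcr-2, which makes those small RNAs, had 3.86 and 4.05 signal in exon 5 of 8 in the knockdown libraries and 1.02 and 1.42 in the controls (change 1.14, SE 0.41).

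RNA modification genes had 7 members and 39 exons, with 0 at an unadjusted p under 0.05 and a median change of 0.03. CG6422 (now Ythdf, a reader of methyladenosine), Nop60B (the pseudouridine synthase of box H/ACA particles) and CG4045 held their smallest p, with changes of -0.95, 0.64 and -0.66. Nonsense-mediated decay genes had 3 members (Smg5, Smg6 and Upf1) and 20 exons, of which 1 (5.0%, against 3.8% over all exons) had an unadjusted p under 0.05. That was Smg6 exon 9 of 10, at 4.47 and 3.05 signal in the knockdown libraries and 0 and 2.11 in the controls. Smg5 exon 3 had a change of 0.33 and Upf1 exon 4 one of -0.90. The exon junction list had 2 members and 7 exons, with 0 at an unadjusted p under 0.05; the smallest p lay in RnpS1 exon 1 (change 0.79) and eIF4AIII exon 3 (0.38). Cytoplasmic ribosomal protein genes, with 64 members of 93 and 237 exons, had the smallest median absolute change of the lists, 0.11 against 0.25 over all exons. Over exons of any gene it was 0.15 at 200 or more reads in bins and 0.35 at 10 to 50. The part of depth in the small median absolute change was not tested. Of the ribosomal protein exons 2 (0.844%, against 3.8% over all exons, 1 higher and 1 lower) had an unadjusted p under 0.05. The higher one was RpL9 exon 2 (change 0.40). RpL10Ab exon 1, of 1 bin, had a change of 0.73.

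**Figure D5:**
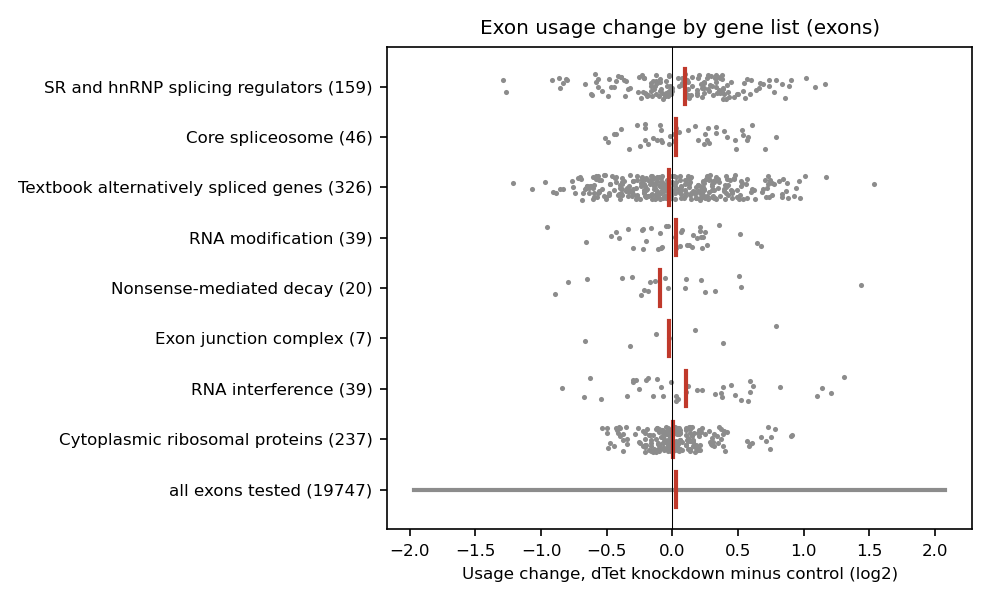
Usage change, dTet knockdown minus control (log2, x axis), of each exon (grey points) of the gene lists, with the median as a red bar and the number of exons in parentheses; for all exons the grey line spans the lowest to the highest value. Medians lie between -0.10 and 0.10 in all lists after rounding, and the median absolute change is smallest in ribosomal protein genes (0.11), though not the range.

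Exons under hMeRIP peaks were set against the knockdown last. In hMeRIP-seq an antibody to hydroxymethylcytosine enriches RNA fragments that are then sequenced, and 1 peak list came from cells edited by CRISPR at the pigmentation gene yellow and 1 from cells edited at dTet. A yellow-list peak touched 374 member exons in 267 genes. These exons were long and well covered, with a median of 26 bins and 9.17 signal, against 7 bins and 2.38 signal in the 1855 other exons of the genes with such a peak. Their usage was likewise above the gene mean in every library, at 0.20 and 0.21 in the knockdown libraries and 0.15 and 0.20 in the controls, where the other exons of those genes stood between -1.03 and -0.89. Their median usage change was 0.03, against 0.00 in the other exons of those genes and 0.02 over all exons. None passed, and 17 (14 higher, 3 lower; 4.55%) had an unadjusted p under 0.05, against 5.07% (48 higher, 46 lower) of the other exons of those genes and 3.8% of all exons. The 715 exons under a dTet-list peak had a median change of 0.02, with 32 higher and 12 lower at an unadjusted p under 0.05 (6.15%), against 430 higher and 321 lower (3.8%) of all exons. Their median standard error was 0.21, against 0.40 over all exons. Among exons of any gene with 200 or more reads in bins, 130 were higher and 115 lower (5.23%). The part of coverage in the share under dTet-list peaks was not tested. The yellow-list and dTet-list sets share 313 exons, which had a median change of 0.05. Of these shared exons 14 were higher and 2 lower at an unadjusted p under 0.05 (5.11%). The 61 exons under a yellow-list peak alone had a median change of -0.02, with 0 higher and 1 lower (1.64%). Without control 1 the median of the yellow-list exons was -0.0017.

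The exons of smallest p under a yellow-list peak were all higher in the knockdown. Beside Top1 exon 5 and AGO2 exon 2 they were Sur-8 exon 2, CG8677 exon 3 and eff exon 5. Sur-8, a scaffold gene of Ras signalling, had 24.96 and 28.2 signal in that exon in the knockdown libraries and 9.13 and 21.3 in the controls (change 0.73, SE 0.21). eff, a ubiquitin-conjugating enzyme gene, had 26.9 and 35.02 in the knockdown libraries against 16.7 and 24.5 in the controls (change 0.45, SE 0.15), and CG8677 had 3.44 and 5.00 in the knockdown libraries against 1.90 and 2.21 in the controls. Control 1 was the lowest library in the Sur-8, AGO2, eff and CG8677 exons. The genes with the most exons under yellow-list peaks held none of these. In Cg25C (now Col4a1), a collagen IV chain gene, 5 of 9 exons had such a peak, with changes between -0.15 and 0.26. nocte had 5 of 7 exons, with changes between -0.49 and 0.15, and fs(1)h, a bromodomain gene, 4 of 16, between -0.17 and 0.15. Bruce, an inhibitor of apoptosis, had 4 of 32, between -0.40 and 0.19, and Dap160, the fly intersectin, 4 of 13, between -0.27 and 0.06.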

How the data were processed

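Transcript signal was measured by polyA RNA-seq in 2 dTet knockdown and 2 control libraries of S2 cells. Reads were aligned with BWA to dm3, and peaks were called with MACS 1.4, per the submitters' processing notes; the labels' extract protocol describes antibody pull-down alike for every sample, so how the polyA libraries were made is unclear; the annotation, the read counter, and the handling of junctions and duplicates are not given in the sources used here. The deposited values were taken as coverage signal, the mean over 40-bp bins of reads times 1 factor per library: 100% of 21318 to 22001 exons checked per library held whole reads within 0.05. The deposited peak lists give only start and end, in no other unit.

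Exons of a gene symbol on 1 chromosome (53 symbols lie on more than 1) that overlap were grouped and the longest kept; gene means were weighted by length. Usage was fitted with limma 3.58.1 in R 4.3.3 (lmFit, eBayes with a trend on log2 of the exon's mean signal times its bins), adjusted by Benjamini-Hochberg over all 19747 exons. With 2 libraries per group the fits rest on a spread pooled over exons. The fits were tested on simulated data; there the unweighted gene F test missed most changes of a single exon, so its count of 0 says little. The files give no strand, so the planned 3' to 5' balance was run in genome order and the planned trend along the gene from the end of higher signal. Of the member genes 2402 carry a current RefSeq symbol, 579 a synonym and 47 neither. Of the member exons 1716 overlap another gene, and reads there count for both.

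Named exons are the exons of dTet, the 12 of smallest p in each direction (1 per gene, since none passed), the 5 genes of smallest F-test p, the 3 genes of smallest exon p per list, the 5 genes with the most exons under yellow-list peaks, the 5 exons of smallest p there, and the 5 internal exons of lowest and of highest usage. NFAT exon 3, Stat92E exons 1 and 10, eco exon 2, Sxl and the exons at 0 in 1 group were added after their values were seen. Results of 1 gene that this rule names are not reported here. Members and lists were chosen with earlier results of these data known. Library and exon alternatives are given in the closing section.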

Additional observations from a re-analysis of the deposited data

How the results depend on the processing

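The count of 0 exons past the threshold held with a pseudocount of 0.5 or 0.1, with only exons of mean signal 1 or more, of 3 or more bins or in no other gene, with a gene mean of 5 or more, relative to the other exons or to the median exon, without a variance trend, after quantile normalization, and with the trend along the gene removed, an alternative chosen after seeing the data. With a library left out it ranged from 0 to 124 exons, the 124 without control 2, where the lone control is assumed to vary like the knockdown libraries. The count of genes with unequal exon change was 0 by the Simes test, with exon filters, without each library in turn, with the trend removed and with precision weights per exon (the last 2 chosen after seeing the data), and 6 with a pseudocount of 0.1; the cause was not tested. The count of genes whose end balance differed ranged from 0 to 1 with a library left out (RpL22, without control 2) and was 0 with a pseudocount of 0.1, with terminal exons and without shared exons. The labels link same-numbered libraries by their number alone, and whether they were paired is not stated. The deviations of knockdown 1 and control 1 from their group means had a correlation of 0.01 over exons, which cannot settle it. With a replicate block 0 exons and 0 genes by the F test passed, 1040 exons had an unadjusted p under 0.05, and 4 genes (egr, rnh1, RpL22 and Vps24) passed for balance. The 24 exons of smallest p had the same direction with a pseudocount of 0.1, after quantile normalization and with the trend removed; with a library left out or a replicate block their direction is fixed by the choice of exons. Of the 11 exons of dTet, 5 (exons 3, 5, 6, 7 and 11) kept their direction in all 8 alternatives and 6 did not. Exon 1 was at 0.054 with the trend removed. With a library left out, exon 2 ranged from -0.63 to 0.16 (positive without control 1), exon 4 from -0.44 to 0.051 (positive without knockdown 1), exon 8 from -0.71 to 1.08 (-0.71 without control 2, -0.31 without knockdown 2), exon 9 from -0.62 to 0.43 (0.43 without knockdown 2, 0.11 without control 1) and exon 10 from -0.024 to 0.62 (negative without knockdown 1). The median change of exons under a yellow-list peak ranged from -0.0017 to 0.027 with a library left out, and that under a dTet-list peak from 0.0043 to 0.036. By depth, the median standard error was 0.51 in exons of 10 to 50 reads in bins and 0.20 in those of 200 or more.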
